A study of Mus musculus with 12 samples.

Results

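The genes described here are Trp53, which encodes the transcription factor p53, and 8 genes known as its direct targets: Mdm2, Ccng1, Trp53inp1, Phlda3, Zmat3, Aen, Plk2 and Btg2. They were taken by gene symbol, and all 9 were found among the 15113 genes of the count table. C2C12 cells, mouse myoblasts grown as a line and made to form myotubes by lowering serum, were differentiated and then exposed for 16 h to 20 μM BAM15, a mitochondrial uncoupler dissolved in DMSO, or to vehicle. RNA from 6 libraries per condition was measured by QuantSeq, which counts reads near the 3′ end of transcripts. All libraries came from the same cell line, and the labels do not state whether the 6 libraries of a condition were separate cultures. The p-values therefore measure the spread between libraries, which may be technical. In bulk RNA, fewer cells with a transcript and less transcript per cell cannot be told apart.

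p53 is held at a low level by Mdm2, a ubiquitin ligase that marks it for degradation, and by the related protein Mdm4. When DNA damage, ribosomal stress or other insults release p53 from this control, it binds DNA as a tetramer and raises the transcription of genes for cell cycle arrest, DNA repair, metabolism and cell death, and also of Mdm2, which closes a feedback loop. Much of this control acts on the p53 protein, which RNA counts do not measure.

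Of the 9 genes, 7 were higher with BAM15 (77.8%), 0 were lower and 2 did not pass the test, at an adjusted p-value below 0.01 in the quasi-likelihood test of edgeR, with Benjamini-Hochberg adjustment over 12730 genes. By the same rule 22% of all tested genes were higher and 20.3% were lower. The increases ran from 1.20-fold for Ccng1 to 2.65-fold for Plk2, and 5 of the 7 increases were under 2-fold. Only Plk2 and Btg2 also passed the other thresholds used here, a mean normalized count above 50 and a change above 2-fold, which 3.7% of tested genes passed upward and 3.58% downward. In 6 of the 9 genes every BAM15 library lay above every vehicle library, compared with 17.1% of all tested genes, whereas 17% of tested genes had every BAM15 library below. The median log2 fold change was 0.65 over the 9 genes and 0.02 over all tested genes. The 9 genes were chosen with earlier results of these data known.

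Stretches of promoter that hold a p53 motif are shown because p53 acts on its targets through DNA, and they let the reader see which of these genes carry the motif next to their start site. The motif searched was 10 bases, 3 purines, C, 2 bases that are A or T, G and 3 pyrimidines, which reads the same on both strands. The windows were the RefSeq promoters of GRCm38.p6, from 250 bases before to 50 after a start site, and 8.36% of all 32851 windows held an exact match. Of the 9 genes, 7 had a window and 4 of these held the motif, with the match in capitals and each sequence read 5′ to 3′ on the strand of its gene:
Trp53, chr11:69580254-69580323, plus strand: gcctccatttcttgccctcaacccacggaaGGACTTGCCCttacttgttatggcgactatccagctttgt
Mdm2, chr10:117710905-117710974, minus strand: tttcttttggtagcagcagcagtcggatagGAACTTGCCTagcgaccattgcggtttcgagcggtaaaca
Ccng1, chr11:40755432-40755511, minus strand: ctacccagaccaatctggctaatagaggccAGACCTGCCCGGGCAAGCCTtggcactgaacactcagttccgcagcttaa
Aen, chr7:78895907-78895946, plus strand: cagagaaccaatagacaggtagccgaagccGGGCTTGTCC

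Ccng1 was the member with 2 adjacent copies of the motif, here with 1 mismatch in 20 bases, an arrangement that 22 windows held (0.067%). The pair lies 195 to 176 bases before its start site. The match of Mdm2 lies 186 to 177 bases before the start and that of Trp53 75 to 66 bases before it, while that of Aen falls in bases 10 to 19 after the first of 2 annotated starts. Counted from the second start of Aen, the same match lies 121 to 112 bases before it. No match was found in the windows of Phlda3, Plk2 and Btg2, and for Trp53inp1 and Zmat3 no window was searched. Cdkn1a, the gene of the cell cycle inhibitor p21 and the classic p53 target, also held the paired motif with 1 mismatch. The pair lies in the window of the first of its 2 annotated starts, and the window of the second held no match. Cdkn1a is given for comparison, with the pair in capitals and positions counted from the first start. A further single match, 73 to 64 bases before the start, is left in lower case:
Cdkn1a, chr17:29090898-29090977, plus strand: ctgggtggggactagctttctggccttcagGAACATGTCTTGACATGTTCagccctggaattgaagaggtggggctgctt
Of the genes with a motif in these windows, Trp53, Mdm2 and Ccng1 rose (1.57-, 1.28- and 1.20-fold) and Aen did not pass the test. Of the genes without a match within the 300 bases searched, Plk2 and Btg2 had the largest increases and Phlda3 did not pass the test. A match is a description of letters and not a binding site, and a missing match says nothing about sites elsewhere.

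Between 13983725 and 18751780 reads per BAM15 library and between 15299135 and 18866728 per vehicle library were counted on genes. Values below are normalized counts, that is, counts scaled for library size by the TMM method of edgeR. The BAM15 libraries numbered 4 to 6 stood apart from those numbered 1 to 3, since 38.8% of tested genes differed between these sets at an adjusted p-value below 0.05 (edgeR), whereas 0 genes differed between the corresponding vehicle sets, where 696 had an unadjusted p under 0.05. The labels name no batch. Of the 9 members 0 differed between the BAM15 sets, the lowest adjusted p being 0.0884 for Plk2 in edgeR's test. Each gene is nevertheless given within both sets. The cells carried the RNA of myotubes, with all 7 myotube markers tested at high counts (Acta1 at 128000 ± 6864 in vehicle, SD, n = 6). With BAM15, Acta1 (log2 fold change 0.46) and Myog (0.37) were higher and Ckm (-0.17) and Mymk (-0.27) lower, at an edgeR adjusted p below 0.01. These are 28.6% of the 7 in each direction, against 22% and 20.3% of all tested genes. Myh3, Tnnt3 and Des did not pass the test. Of the macrophage, endothelial and adipocyte markers only Cd68 passed the filter on low counts, at 13.7 ± 3.84 in vehicle and 64.2 ± 8.53 with BAM15 (SD, n = 6). The 3 markers of undifferentiated myoblasts went in different directions. Mki67, which marks dividing cells, fell from 734 ± 73.2 to 210 ± 46.1 and Pax7 from 219 ± 26.9 to 115 ± 17.0, whereas Myf5 rose from 148 ± 39.7 to 479 ± 260 (SD, n = 6, each at an adjusted p below 0.01 in edgeR). The part of a changed share of undifferentiated cells in the results was not tested.

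**Figure D1:**
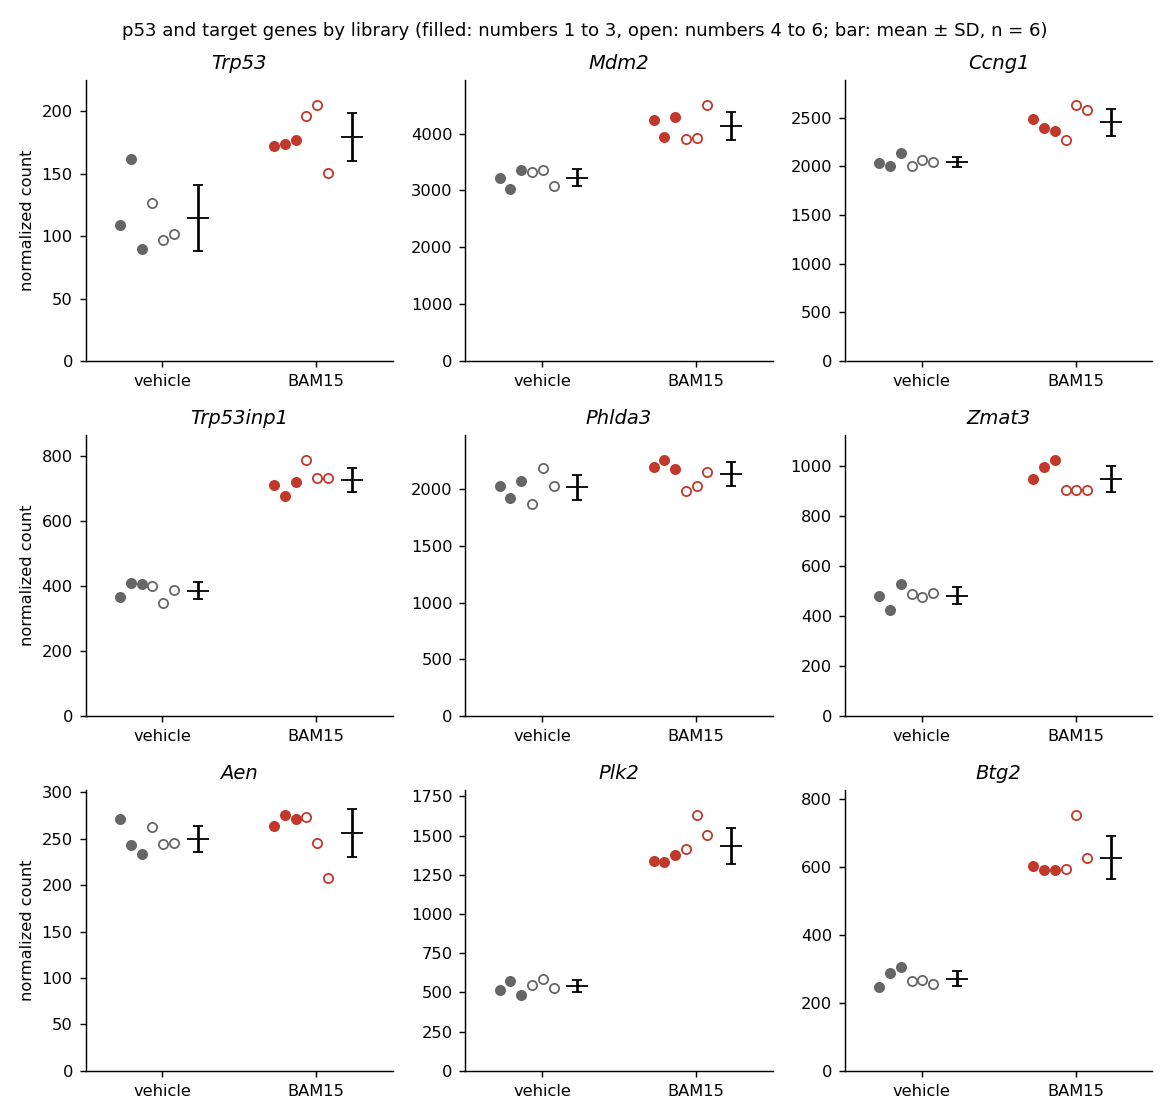
Normalized counts of Trp53 and its 8 target genes in each of the 6 vehicle (grey) and 6 BAM15 (red) libraries, filled for library numbers 1 to 3 and open for 4 to 6, with the mean ± SD of 6 libraries as a bar; each vertical axis starts at 0. The groups are apart in 6 panels and overlap in those of Trp53, Phlda3 and Aen.

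Trp53 itself (chr11:69580359-69591873, plus strand of GRCm38) was raised. Its normalized count had a lowest value of 89.8, a median of 105.7 and a highest value of 161.7 in vehicle, and 150.6, 175.3 and 204.7 with BAM15. The groups overlapped because vehicle library 2, at 161.7, lay above BAM15 library 6, at 150.6. The mean went from 114 ± 26.4 to 179 ± 19.3 (SD, n = 6), a log2 fold change of 0.65 (SE 0.13, adjusted p = 0.000822 in edgeR's quasi-likelihood test), or 1.57-fold. Without vehicle library 2 the log2 fold change was 0.77, with an edgeR adjusted p of 6.05e-05. The 12 libraries held between 94 and 218 reads of Trp53, the fewest of the 9 genes in vehicle, and its standard error was the largest among them. The log2 fold change was 0.54 within library numbers 1 to 3, where the adjusted p of 0.0177 in edgeR's test did not pass 0.01, and 0.77 within numbers 4 to 6 (adjusted p = 0.00184). The difference between both sets did not pass its test (edgeR adjusted p = 0.61).

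Mdm2 (chr10:117688875-117710758, minus strand), the ubiquitin ligase that restrains p53, rose by a smaller factor. Its counts were 3022, 3263 and 3360 in vehicle (lowest, median, highest) and 3905, 4090 and 4497 with BAM15. All BAM15 libraries were above the vehicle range. From 3224 ± 147 to 4134 ± 248 (SD, n = 6), the log2 fold change was 0.36 (SE 0.05, edgeR adjusted p = 4.26e-05), or 1.28-fold, with 0.38 and 0.34 within library numbers 1 to 3 and 4 to 6.

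The ratio of Mdm2 to Trp53 within a library, which does not depend on scaling, was lower with BAM15 by 0.31 on the log2 scale, but this difference did not pass an exact two-sided permutation test over the 924 arrangements of the libraries (p = 0.104, adjusted over 10 pairs 0.195). With each library left out in turn, the difference passed only without vehicle library 2, at -0.43 (exact permutation p = 0.0130, adjusted p = 0.0260). The ratio of Mdm2 to Mdm4 gave a clearer picture. Mdm4, the second restrainer of p53, lies among the close relatives of the members and went from 480 ± 19.8 to 1011 ± 162 (SD, n = 6), a log2 fold change of 1.07 (SE 0.09, edgeR adjusted p = 1.64e-07). Mdm4 thus rose more than Mdm2, and the log2 ratio of Mdm2 to Mdm4 was lower in all 6 BAM15 libraries than in any vehicle library, by 0.70 on average (exact permutation p = 0.00216, the smallest this design allows, adjusted p = 0.00541). The difference was -0.82 within library numbers 1 to 3 and -0.58 within 4 to 6, where 3 against 3 libraries cannot give an exact p below 0.1. In the last 400 bases of Mdm4, 5.7% of 50-base windows also occur in Mdm4-ps, so a part of its reads could belong to this copy.

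Plk2 and Btg2 carried the largest increases. Plk2 (chr13:110395046-110400844, plus strand) encodes a polo-like kinase induced by stress. It had 485.4, 540.2 and 587.6 normalized counts in vehicle (lowest, median, highest) and 1334, 1393 and 1630 with BAM15. The lowest BAM15 library was thus far above the highest vehicle library. The log2 fold change was 1.41 (SE 0.07, edgeR adjusted p = 1.88e-10), or 2.65-fold, and came to 1.37 and 1.45 within library numbers 1 to 3 and 4 to 6.

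Btg2 (chr1:134075170-134079120, minus strand), an antiproliferative protein that recruits the mRNA deadenylation machinery, had 246.5, 265.6 and 306.7 normalized counts in vehicle and 593.1, 600.4 and 753.9 with BAM15. BAM15 library 5, at 753.9, stood above the other 5, which were close together. The mean went from 272 ± 22.1 to 628 ± 63.0 (SD, n = 6), a log2 fold change of 1.21 (SE 0.08, edgeR adjusted p = 6.77e-09), or 2.31-fold. Without BAM15 library 5 it was 1.15. Within library numbers 1 to 3 and 4 to 6 the log2 fold changes were 1.09 and 1.33, and their difference had the lowest adjusted p of the 9 genes, 0.312 in edgeR's test. Thus 0 of 9 members had an effect that differed between the sets, compared with 2.66% of all tested genes.

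Zmat3 and Trp53inp1 came close to a doubling. Zmat3 (chr3:32334792-32366014, minus strand) encodes a zinc finger protein that binds RNA and acts in splicing. Its normalized counts were 423.3, 483.8 and 529.4 in vehicle (lowest, median, highest) and 904.6, 927.1 and 1023 with BAM15. No library of one condition reached the range of the other. The log2 fold change was 0.97 (SE 0.06, edgeR adjusted p = 5.10e-09), or 1.97-fold, just under the 2-fold threshold. It was 1.05 within library numbers 1 to 3 and 0.90 within 4 to 6, so that Zmat3 passed the 2-fold threshold in the first set and not in the second. Leaving out vehicle library 3 also took it just past the threshold, at 1.00.

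Trp53inp1 (chr4:11156431-11174379, plus strand), a nuclear protein linked to p53-dependent death and to autophagy, had 346.4, 393.6 and 409.5 normalized counts in vehicle and 676.3, 726.7 and 787.1 with BAM15. Again the groups were well apart. The mean rose from 386 ± 24.8 to 727 ± 36.1 (SD, n = 6), with a log2 fold change of 0.91 (SE 0.06, edgeR adjusted p = 8.65e-09), or 1.88-fold, and 0.84 and 0.99 within the lower and higher library numbers. The increase of Trp53inp1 exceeded that of Mdm2, since their log2 ratio was higher with BAM15 by 0.56 in an exact permutation test (p = 0.00216, adjusted p = 0.00541) with no overlap between conditions.

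Ccng1 (chr11:40748552-40755311, minus strand), cyclin G1, which recruits a phosphatase to Mdm2, had the smallest increase that passed the test. It counted 2002, 2038 and 2141 in vehicle (lowest, median, highest) and 2266, 2442 and 2627 with BAM15. The gap between the groups was narrow but held for all 12 libraries. The mean went from 2048 ± 51.8 to 2452 ± 136 (SD, n = 6), a log2 fold change of 0.26 (SE 0.05, edgeR adjusted p = 0.000374), or 1.20-fold, with 0.23 and 0.29 within the lower and higher library numbers.

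Phlda3 and Aen did not pass the test. Phlda3 (chr1:135766119-135769136, plus strand), a pleckstrin homology domain protein that competes with AKT for membrane lipids, had 1873, 2031 and 2184 normalized counts in vehicle (lowest, median, highest) and 1988, 2168 and 2255 with BAM15. The groups overlapped over most of their range. The log2 fold change was 0.08 (SE 0.05, edgeR adjusted p = 0.220), with 0.14 within library numbers 1 to 3 and 0.02 within 4 to 6.

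Aen (chr7:78895854-78911209, plus strand), an exonuclease that enhances apoptosis, had 233.2, 245.1 and 271.2 normalized counts in vehicle and 207.8, 267.9 and 275.5 with BAM15. BAM15 library 6, at 207.8, was the lowest of all 12, while the 3 BAM15 libraries numbered 1 to 3 lay between 264.1 and 275.5. The log2 fold change was 0.04 (SE 0.08, edgeR adjusted p = 0.731). It was 0.12 within numbers 1 to 3 and -0.05 within numbers 4 to 6, and it also turned negative, to -0.03, when counts were scaled by library size only.

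**Figure D2:**
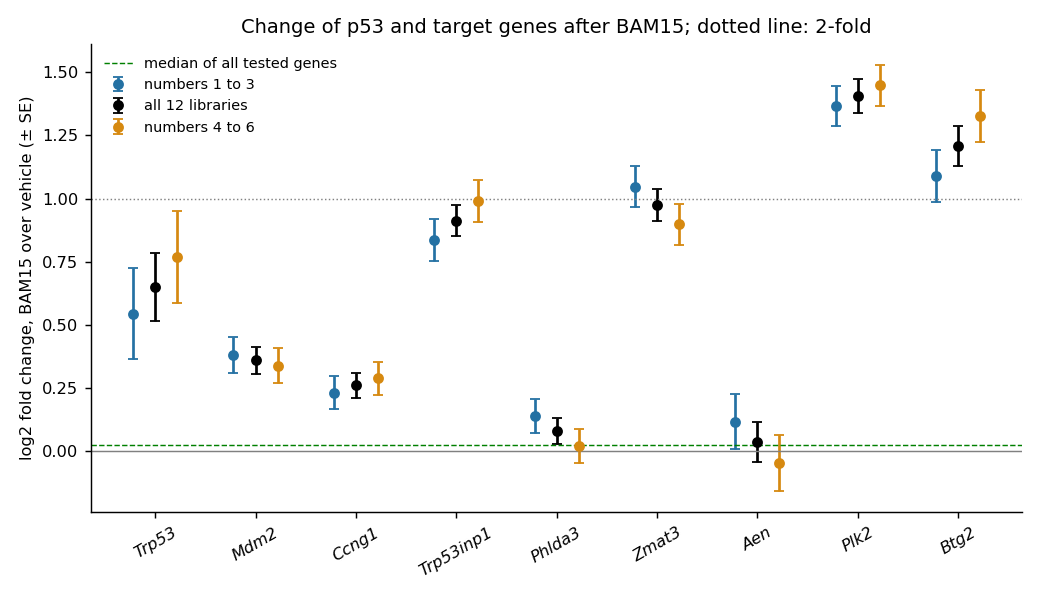
Log2 fold change (BAM15 over vehicle, ± SE) of Trp53 and its 8 target genes over all 12 libraries (black) and within library numbers 1 to 3 (blue) and 4 to 6 (orange), with the median of all tested genes dashed and the 2-fold threshold dotted. Plk2 (1.41) and Btg2 (1.21) lie above the dotted line, Zmat3 (0.97) and Trp53inp1 (0.91) just below it, and Phlda3 (0.08) and Aen (0.04) near the dashed line.

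For none of the 9 genes was a 50-base window of the last 400 transcript bases shared with another gene, and no exon of another gene overlaps these bases in GENCODE M21, so reads near the 3′ ends could be assigned to 1 gene.

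To see whether the changes were shared by related genes, the ratio of each target to a relative was compared within libraries, which gave 10 pairs with those above. Of the 10, 4 differed at an adjusted p below 0.05 in the exact two-sided permutation test, and in these 4 the conditions did not overlap. Zmat3 rose against Zmat2, a splicing factor of the same zinc finger family, by 1.19 on the log2 scale (p = 0.00216, adjusted p = 0.00541, exact), with 1.11 and 1.26 within the lower and higher library numbers. Trp53inp1 rose against Trp53inp2, its paralog in autophagy, by 1.62 (p = 0.00216, adjusted p = 0.00541, exact). The size of the latter differed between the sets, 2.00 within numbers 1 to 3 and 1.24 within 4 to 6, and Trp53inp2 averaged 1003 ± 219 in BAM15 libraries 1 to 3 and 2277 ± 246 in BAM15 libraries 4 to 6 (SD, n = 3).

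For the other 5 pairs of a target and its relative no difference of the ratio passed the test. Plk2 and its relative Plk3, a stress kinase and p53 target, gave a difference of their log2 ratio of -0.06, within the SD of 0.21 in vehicle and 0.17 with BAM15 (exact permutation p = 0.597, adjusted 0.664). Plk3 went from 113 ± 13.7 to 313 ± 17.0 (SD, n = 6), a log2 fold change of 1.46 (SE 0.09, edgeR adjusted p = 2.69e-09), but 84 of its last 400 bases are also covered by Tctex1d4 on the opposite strand, and the strand used for counting is not given in the sources used here. The ratio of Phlda3 to Phlda1 differed by 0.10 (exact permutation p = 0.134, adjusted 0.195) and that of Aen to Isg20l2, another exonuclease of its family, by 0.01 (exact permutation p = 0.961).

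The differences in the ratios of Btg2 to Btg1 and of Ccng1 to Ccng2 were unequal between the library sets, as values without a test. Btg1, also antiproliferative, was at 338 ± 86.3 in vehicle and 562 ± 235 with BAM15 (SD, n = 6), and the Btg2 to Btg1 ratio differed by 0.58 overall (exact permutation p = 0.182, adjusted 0.227), 0.21 within numbers 1 to 3 and 0.95 within 4 to 6. Ccng2, the second cyclin G, averaged 37.4 ± 9.49 in BAM15 libraries 1 to 3 and 210 ± 114 in BAM15 libraries 4 to 6 (SD, n = 3), and differed between these sets (edgeR adjusted p = 0.00406). The Ccng1 to Ccng2 ratio was higher with BAM15 by 0.99 over all libraries (exact permutation p = 0.136, adjusted 0.195), by 1.98 within numbers 1 to 3 and by -0.00 within 4 to 6. Among the 17 relatives tested, 6 differed between the BAM15 sets (35.3%, against 38.8% of all tested genes). Over all libraries 4 were higher with BAM15 (23.5%, against 22% of all tested genes), namely Mdm4, Plk3, Isg20 and Ccni. Only 1 was lower (5.88%, against 20.3%), the mitotic kinase Plk1 (log2 fold change -2.04, SE 0.08, edgeR adjusted p = 3.65e-11).

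**Figure D3:**
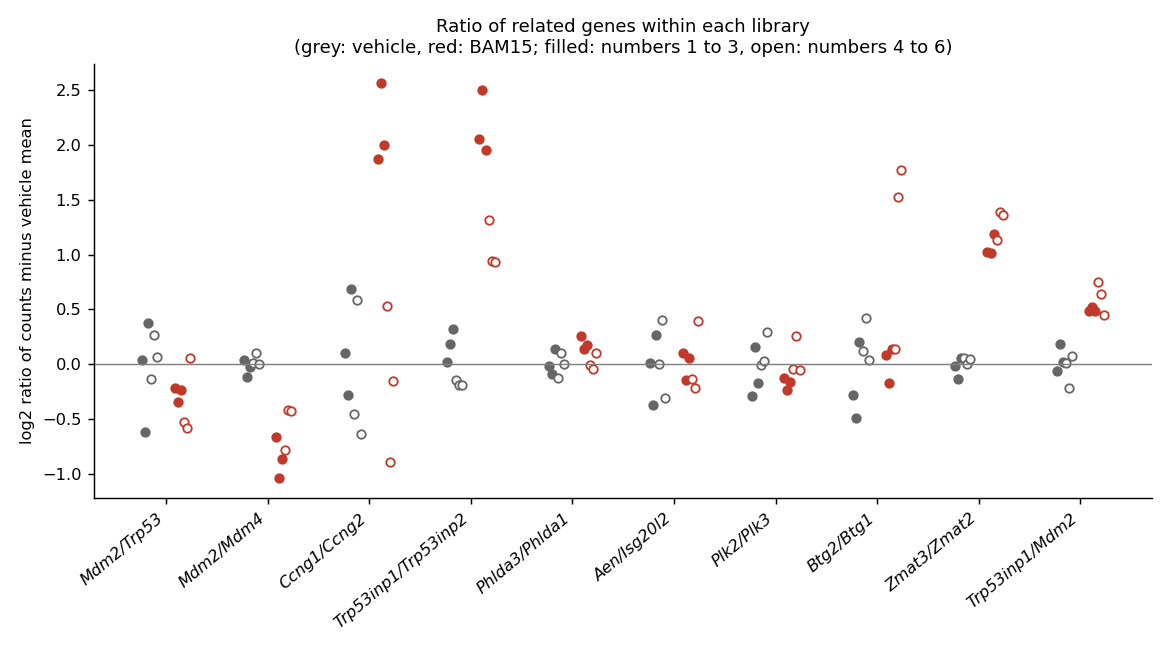
Log2 ratio of the counts of 10 pairs of related genes in each of the 12 libraries, minus the vehicle mean of the pair (grey vehicle, red BAM15; filled library numbers 1 to 3, open 4 to 6). Mdm2/Mdm4 is lower and Trp53inp1/Trp53inp2, Zmat3/Zmat2 and Trp53inp1/Mdm2 are higher in all 6 BAM15 libraries than in any vehicle library, while the filled and open BAM15 points of Ccng1/Ccng2 lie apart.

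The remaining p53 target genes were mixed in direction. Cdkn1a was at 98670 ± 6403 in vehicle and 81130 ± 11020 with BAM15 (SD, n = 6), and its log2 fold change of -0.28 (SE 0.09) had an adjusted p of 0.0135 in edgeR's test, which missed 0.01, with groups that overlapped. Over 5 lists of other targets, 62 genes were tested. Of these, 23 were higher (37.1%, against 22% of all tested genes) and 11 lower (17.7%, against 20.3%). Their median log2 fold change was 0.24. The 9 genes described above held a larger share of increases and no decrease, as counts without a test of that difference. Members and lists were chosen with earlier results of these data known, and the part of that choice in the difference was not tested.

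Among 10 arrest genes, 2 were higher (Plk3 and the stress protein gene Gadd45a, log2 fold change 2.18, SE 0.24, edgeR adjusted p = 8.34e-06) and 2 lower (Ckap2, -1.20, and Ptprv, -0.88), shares of 20.0% each that are near those of all tested genes. Among 12 death receptor and BCL2 family genes, 3 were higher (25.0%) and 2 lower (16.7%), again near the shares of all tested genes. Bbc3, which encodes the death promoter PUMA, went from 408 ± 24.1 to 1339 ± 90.5 (SD, n = 6) with a log2 fold change of 1.71 (SE 0.06, edgeR adjusted p = 8.98e-12). Tnfrsf10b, a death receptor, and Apaf1, a caspase activator, rose by 1.04 and 1.12 on the log2 scale, while Casp6, a caspase, and Triap1 had values of -0.78 and -0.27. Bax, the classic pore former and p53 target, was at 0.39 on the log2 scale (SE 0.13) and missed the threshold (edgeR adjusted p = 0.0179), with 0.57 within library numbers 1 to 3 (edgeR adjusted p = 0.00182) and 0.18 within 4 to 6 (edgeR adjusted p = 0.299). In this list 6 of 12 genes differed between the BAM15 sets (50%, against 38.8% of all tested genes).

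Of 9 genes for DNA repair and nucleotide supply, 4 were higher (44.4%, against 22% of all tested genes) and 1 lower (11.1%, against 20.3%). The 4 were Polk (0.67), Rrm2b (0.75), Ddb2 (1.08) and Ercc5 (0.28 on the log2 scale), and the lower gene was the replication clamp Pcna (-0.50). The BAM15 library sets differed in 3 of these 9 genes (33.3%, against 38.8% of all tested genes). The log2 fold change of Pcna was -0.73 within numbers 1 to 3 and -0.29 within 4 to 6. Ddb2 had an edgeR adjusted p of 0.259 within numbers 1 to 3 (log2 fold change 0.48) and of 0.000625 within 4 to 6 (log2 fold change 1.504). Of 15 metabolic and redox genes, 6 were higher (40%, against 22% of all tested genes) and 3 lower (20.0%, against 20.3%). The 6 were led by Sesn2 at 3.06, Ephx1 at 0.91 and Ddit4 at 0.65, and the 3 were Aldh4a1, Gpx1 and Pank1. Of 16 membrane, secreted and other genes, 8 were higher (50.0%, against 22% of all tested genes) and 3 lower (18.8%, against 20.3%). In this list 8 of 16 genes differed between the BAM15 sets (50%, against 38.8% of all tested genes). Of the higher genes, Abcb1a, Slc19a2 and Tap1 had low counts in vehicle, at means of 4.63, 5.69 and 4.80. Among the higher, Gdf15, a secreted stress cytokine, was at 4.52 (SE 0.12, edgeR adjusted p = 3.30e-13) and Zfp365 at 1.27. The lower genes were Sertad1 (-0.84), Rap2b and Ak1.

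Several of the largest increases were of genes that the stress factors ATF4 and CHOP are also known to induce. Of 8 such genes, 7 were higher (87.5%, against 22% of all tested genes), with a median log2 fold change of 1.38 over the 8. The 7 were Trp53inp1, Sesn2, Gdf15, Tnfrsf10b, Bbc3, Ddit4 and Gadd45a. Of the 8 genes, 5 differed between BAM15 libraries 1 to 3 and 4 to 6 (62.5%, against 38.8% of all tested genes). Without the 8, 17 of 55 other targets were higher (30.9%, against 22% of all tested genes) and 11 lower (20.0%, against 20.3%). Their median log2 fold change was 0.17. Leaving Trp53inp1 out of the 9 genes left 6 of 8 higher (75.0%, against 22% of all tested genes) and a median log2 fold change of 0.50. The part of either factor in these changes was not tested.

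Of 20 tested genes of the p53 family and its upstream regulators, 9 were higher (45.0%, against 22% of all tested genes). In this list 3 were lower (15.0%, against 20.3%). Trp63, the p53 family member p63, fell from 415 ± 24.9 to 138 ± 17.7 (SD, n = 6), a log2 fold change of -1.59 (SE 0.09, edgeR adjusted p = 8.82e-10). Of the kinases that activate the pathway, Hipk2 and Chek1 fell by 0.51 and 0.79 on the log2 scale, whereas Atm (0.54), Atr (0.56) and Chek2 (0.51) rose. The groups overlapped for Atm and Atr. Atm was at 0.82 within numbers 1 to 3 and at 0.20 within 4 to 6 (edgeR adjusted p = 0.194). Within numbers 1 to 3 the edgeR adjusted p was 0.0256 for Atr, 0.107 for Chek2 and 0.025 for Chek1, none below 0.01. Rchy1 (0.59), Sirt1 (0.54), Rpl5 (0.53) and Cop1 (0.24) of this list also rose, with groups that overlapped for Sirt1 and Cop1. The BAM15 sets differed in 8 of these 20 genes (40%, against 38.8% of all tested genes). Rpl11, a ribosomal protein that binds Mdm2, rose by 0.34 (SE 0.06, edgeR adjusted p = 0.000119). All 12 tested cell cycle genes that p53 is known to lower through p21 and the DREAM complex were lower. Their median log2 fold change was -1.50, and 20.3% of all tested genes were lower. In this list 5 of 12 genes differed between the BAM15 sets (41.7%, against 38.8% of all tested genes). The log2 fold change of Cdk1 was -2.16 within numbers 1 to 3 and -1.02 within 4 to 6 (difference at an edgeR adjusted p of 0.0477). Birc5 (survivin) was at -2.31, Plk1 at -2.04 and Cdc20 at -1.49, beside the value of Cdkn1a, the p21 gene, given above.

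**Figure D4:**
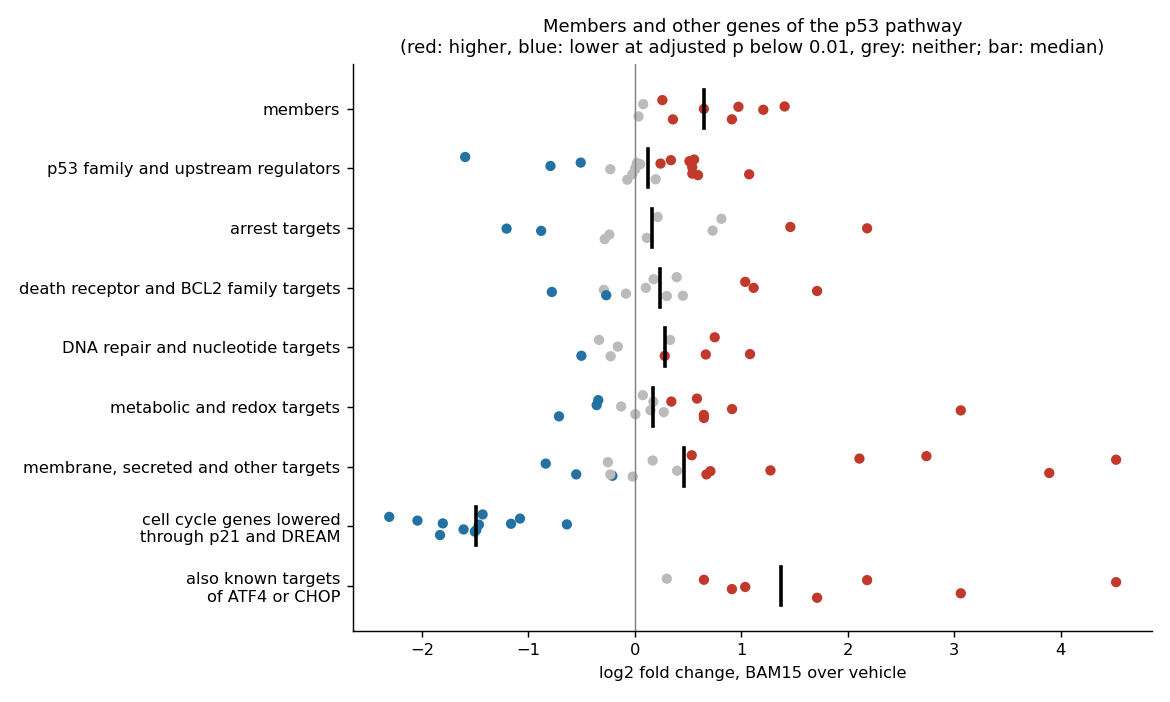
Log2 fold change (BAM15 over vehicle) of each tested gene in the 9 members and in lists of other p53 pathway genes, red where higher and blue where lower at an adjusted p below 0.01, grey otherwise, with the list median as a black bar. The members lie above 0 with a median of 0.65, the target lists extend to both sides, and the 12 cell cycle genes all lie below 0.

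Profiles over the 12 libraries were compared as the root mean square difference of log2 CPM, each profile centred on its vehicle mean, among 10469 genes with a mean normalized count above 50. Nearest to Trp53 were Hoxa9 (0.140), Hsp90b1 (0.140), Klf6 (0.142), Crebl2 (0.153) and Bdnf (0.156), and the nearest member was Trp53inp1 at rank 373 (0.268). Nearest to Mdm2 were Repin1 (0.0415), Pptc7 (0.0481), Rpl11 (0.0491), Guk1 (0.0499) and P3h1 (0.0521), and its nearest member was Ccng1 at rank 142 (0.102). The measure reflects size of change and library spread together and all libraries are shared, so these neighbours are a description.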

How the data were processed

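The authors prepared QuantSeq 3′ libraries and deposited raw counts, unnormalized and whole, of reads for each Ensembl gene. They also deposited a table of normalized signal, counts divided by 1 size factor per library (0.836 to 1.07), which served for gene symbols only. The submitters' processing notes name DESeq2 1.22.2 and the build GRCm38/mm10. Reads were sequenced in the forward direction and aligned in BlueBee software. The aligner within it and the strand setting of the counting are not given in the sources used here. The tables hold 11 columns of samples outside this experiment, which were not used.

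Counts were analysed in R 4.3.3 with edgeR 4.0.16. filterByExpr removed 2383 genes, TMM factors ranged from 0.932 to 1.04, and a robust quasi-likelihood fit with condition as its only term was tested over 12730 genes with Benjamini-Hochberg adjustment. The standard error is the log2 fold change divided by the square root of F. Library sets were compared in a model of 4 groups. Ratios of genes used counts plus 0.5. Positions came from GENCODE M21, where 15080 of 15113 identifiers were found. At this depth a gene with 3 or fewer counts is treated as not detected, and all 9 members were far above that.

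The members and gene lists were chosen with earlier results of these data known. The genes named are the 9 members, their relatives in pairs, Cdkn1a and Mdm4, the 3 genes of lowest p in each list, and the 5 genes nearest in profile to Trp53 and to Mdm2. Bax, Atm, Atr, Chek2, Rchy1, Sirt1, Rpl5, Cop1, Cdk1, Abcb1a, Slc19a2, Tap1, the markers of cell types and the genes that complete counts of 5 or fewer were added after their values were seen. List genes without a row in the table were not analysed here. Alternatives were DESeq2 1.42.0, limma-voom (limma 3.58.1), other scalings and filters, blocks for library number or set, each set alone, no robust moderation and each library left out. The tests were checked on simulated data. Python 3.11.15 and matplotlib 3.10.9 drew the figures.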

Additional observations from a re-analysis of the deposited data

Results flagged for a closer look

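The normalized counts of the 9 genes, their relatives in pairs and Cdkn1a were examined for single libraries far from the others of their condition, in 36 groups of 6 values, of which chance singles out about 1 in 20. In Btg2 the highest BAM15 library, number 5, was at 753.9, with the other 5 between 593.1 and 626.8. In Phlda1, a relative of Phlda3, the lowest vehicle library, number 3, was at 2493. The effect of BAM15 on Trp53inp2, the paralog of Trp53inp1, differed between library numbers 4 to 6 and 1 to 3 by 0.89 on the log2 scale (edgeR adjusted p = 0.0444), being -1.14 within numbers 1 to 3 and -0.24 within 4 to 6. None of the 9 genes had such a difference at an adjusted p below 0.05.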

How the results depend on the processing

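Over 24 alternatives the number of the 9 genes higher with BAM15 was 6 or 7 and the number lower was 0. It was 6 within library numbers 1 to 3, where Trp53 missed the threshold (log2 fold change 0.54, edgeR adjusted p = 0.0105), and within numbers 4 to 6, where Ccng1 missed it (0.28, edgeR adjusted p = 0.0139). The number past all thresholds was 2 or 3, with Zmat3 as the third at 1.04 within numbers 1 to 3 and at 1.00 without vehicle library 3. Aen reversed sign to -0.029 with library size only and to -0.059 within numbers 4 to 6, where fewer samples were fitted; the cause of the former was not tested. With each library left out in turn, 4 or 5 of the 10 ratios differed, the fifth being Mdm2 to Trp53 without vehicle library 2.

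With a replicate block for the library number, 7 members were higher, and Trp53 had a log2 fold change of 0.66 (edgeR adjusted p = 0.00105). For the ratios, 0 of 10 differed in the sign-flip test with a replicate block, which cannot give a p below 0.0312. Deviations of same-numbered libraries correlated at -0.0951 to 0.516, and 2 of 6 BAM15 libraries correlated best with their own number. These values do not settle whether same-numbered libraries belong together. Scaling by library size only moved the median of all genes from 0.02 to -0.04 (log2). Changes of Phlda3 and Aen near the size of their standard errors could not be resolved.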
